A study of Mus musculus with 11 samples.

Results

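The retinal pigment epithelium (RPE) moves ions, water, glucose and lactate between the photoreceptors and the choroidal blood supply. The genes described here are 9 channels and carriers of that epithelium, taken by name from the count table, and all 9 were found among its 14602 genes. They are Best1 and Kcnj13 (ion channels), Slc16a1, Slc16a8, Bsg and Slc2a1 (lactate and glucose transport), Atp1b1 and Slc12a2 (sodium pump and ion cotransport) and Aqp1 (water channel). Bulk RNA sequencing was performed on RPE/choroid of C57BL/6J mice collected at 12 months of age, with 6 samples from naïve control mice that received no laser and 5 samples from mice given the 2RT nanosecond laser at 9 months, 3 months before collection. The mice were wildtype in both groups, the laser was applied to small spots in 1 eye, and the neural retina was removed before the RPE and choroid were lysed together. Total counts were 25700881 to 38755994 per library, and these 9 genes took 1.69% of all counts. The labels do not say that each sample came from a separate animal, so the p-values measure the spread between these samples.

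The photoreceptors take glucose from the choroid through the RPE and return lactate to it. GLUT1, encoded by Slc2a1, carries the glucose, and the proton-coupled monocarboxylate transporters MCT1 (Slc16a1) and MCT3 (Slc16a8) carry the lactate, both with basigin (Bsg) as the partner protein that brings them to the membrane. Ion flow sets the volume and the potassium content of the subretinal space, with the sodium pump, whose beta subunit is encoded by Atp1b1, placed on the apical face of this epithelium. Bestrophin 1 (Best1) is a calcium-activated chloride channel, Kir7.1 (Kcnj13) an apical potassium channel, and NKCC1 (Slc12a2) an apical cotransporter of sodium, potassium and chloride.

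Promoters of 7 of the 9 genes were found in RefSeq's annotation of GRCm38.p6, none for Bsg or Slc12a2. Those of Slc2a1, Slc16a8, Best1 and Kcnj13 are shown because the pair of highest difference, and the pair of channels that lay farthest apart in level, are described most fully in the results. Each runs 5′ to 3′ from 250 bases before the start of the transcript to 50 after it, and capitals mark matches, on either strand, to 4 searched words. They are CACGTG, known as an E-box, then CATGTG, the core of the M-box read by the pigment cell factor MITF, then TAATCC, the core read by the homeobox factors OTX2 and CRX, and last ACGTG, the core read by hypoxia-inducible factors. The last lies inside the first. The Slc2a1 promoter is at chr4:119108495-119108794 on the plus strand, and those of Slc16a8 at chr15:79254699-79254998, Best1 at chr19:10001584-10001883 and Kcnj13 at chr1:87394680-87394979 are on the minus strand.
Slc2a1: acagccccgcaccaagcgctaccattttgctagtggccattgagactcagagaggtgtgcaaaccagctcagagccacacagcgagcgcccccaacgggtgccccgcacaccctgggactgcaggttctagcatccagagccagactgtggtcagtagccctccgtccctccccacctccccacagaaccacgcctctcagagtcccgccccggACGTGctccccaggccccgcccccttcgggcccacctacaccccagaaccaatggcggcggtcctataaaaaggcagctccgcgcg
Slc16a8: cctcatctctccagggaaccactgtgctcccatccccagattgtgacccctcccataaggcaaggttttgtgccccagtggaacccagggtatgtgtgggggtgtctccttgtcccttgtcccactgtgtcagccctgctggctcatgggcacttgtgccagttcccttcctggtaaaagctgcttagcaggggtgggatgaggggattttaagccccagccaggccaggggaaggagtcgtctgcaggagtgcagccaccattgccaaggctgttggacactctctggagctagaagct
Best1: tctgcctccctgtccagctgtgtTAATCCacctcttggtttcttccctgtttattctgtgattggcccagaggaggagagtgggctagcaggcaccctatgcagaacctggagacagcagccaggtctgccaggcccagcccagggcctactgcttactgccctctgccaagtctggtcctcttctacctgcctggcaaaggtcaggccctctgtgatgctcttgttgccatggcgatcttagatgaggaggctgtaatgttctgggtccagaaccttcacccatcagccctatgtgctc
Kcnj13: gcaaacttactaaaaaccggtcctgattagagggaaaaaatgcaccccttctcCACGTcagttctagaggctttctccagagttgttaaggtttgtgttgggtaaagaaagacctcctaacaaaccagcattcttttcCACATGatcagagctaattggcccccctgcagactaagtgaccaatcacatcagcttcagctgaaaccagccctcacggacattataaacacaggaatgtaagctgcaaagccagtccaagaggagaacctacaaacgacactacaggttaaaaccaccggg

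ACGTG was present in the promoters of Kcnj13, Slc16a1 and Slc2a1 and in 19.6% of all 32851 promoters of the table. CACGTG was found only for Slc16a1 among these genes (7.15% of all promoters), CATGTG only for Kcnj13 (14.2%) and TAATCC only for Best1 (7.06%). The Slc16a8 promoter held none of these letters. The CG dinucleotide occurred once in each of the promoters of Slc16a8 and Best1, 18 times in that of Slc2a1 and 42 times in that of Slc16a1. A match is a description of letters and not of a bound site.

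The labelled tissue was checked against its markers. All 13 RPE markers, among them Rpe65, Rlbp1 and Mertk, were in the table, with summed levels of 97270 to 134900 CPM (counts scaled to a common library size) in the naïve control samples and 81320 to 131100 CPM in the laser treated samples, and Rgr, an opsin of this epithelium, reached 80080 CPM. RNA of other cells was present too. The 14 photoreceptor markers summed to 6811 to 25210 CPM in the control samples and 4659 to 20920 CPM in the laser treated samples, with high and low libraries in both groups. The medians of these sums were 10700 CPM in the control samples and 6153 CPM in the laser treated samples. The 11 endothelium markers summed to between 132.5 and 364.7 CPM in the control samples and between 220.1 and 598 CPM in the laser treated ones. Of 9 red cell markers listed 4 were in the table, and of 8 ciliary epithelium markers 7. Log2 fold changes, laser treated against naïve control, were positive for 6 of 13 RPE, 1 of 14 photoreceptor and 10 of 11 endothelium markers. They were also positive for 5 of 8 Müller glia, 6 of 8 fibroblast, 5 of 5 melanocyte, 3 of 7 ciliary epithelium and 0 of 4 red cell markers. In a bulk sample fewer cells of a type and less RNA per cell cannot be told apart.

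Levels differed widely between these genes. On the TPM scale, computed here from the counts and the exonic lengths, Kcnj13 was at 9099 ± 2394 (SD over all 11 libraries) and Bsg at 9046 ± 1025 TPM, ranks 11 and 12 of 14239 genes with a known length. These neighbours did not differ beyond their spread, and Kcnj13 was the higher in 6 of 11 libraries. Of the 1270 exonic bases used for Kcnj13, 49.1% are shared with Gigyf2, and what this did to its level was not tested. Slc16a8 followed at 4089 ± 1070 TPM and Slc16a1 at 1825 ± 311.9 TPM, each without overlap with its neighbours. Slc2a1 was at 759.6 ± 213 TPM and Atp1b1 at 547.5 ± 72.94 TPM, with overlapping ranges. Slc12a2 was at 53.03 ± 4.878 TPM and Aqp1 at 49.09 ± 17.18 TPM, also overlapping, and Best1 was lowest at 1.105 ± 1.3 TPM.

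**Figure D1:**
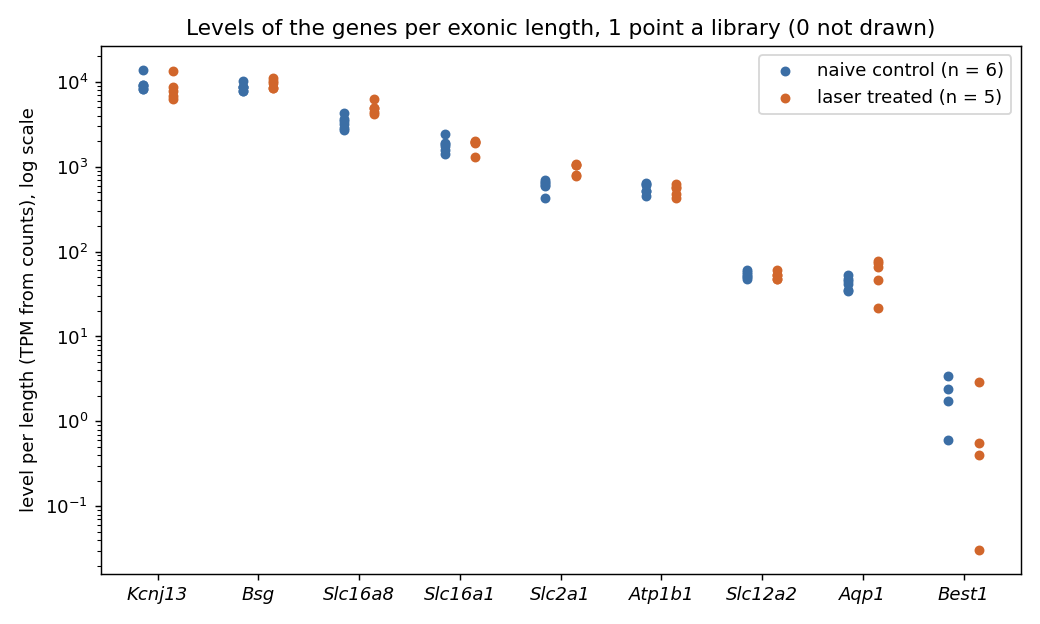
Level per exonic length of each gene (TPM computed from counts, log axis), 1 point a library, for 6 naïve control and 5 laser treated samples. Kcnj13 and Bsg share the highest level, 9099 and 9046 TPM, and Best1 lies lowest at 1.105 TPM on average, with 3 libraries at 0 not drawn.

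No gene differed between laser treated and naïve control samples after adjustment in the edgeR fit on all genes and libraries. Tested with edgeR's quasi-likelihood test and Benjamini-Hochberg adjustment over all 14602 genes, 0 genes (0%) had an adjusted p under 0.05, and 0 of the 9 did. At an unadjusted p under 0.05 edgeR gave 2325 genes (15.9%), and 2 of the 9, Slc2a1 and Slc16a8, both higher after laser. Laser treated and control CPM were fully apart for 330 genes (2.26%) and for 1 of the 9, Slc2a1. DESeq2, as another test, gave an adjusted p under 0.05 to 547 of the 6946 genes that kept an adjusted p (7.88%). Of the 9 it did so for 2, again Slc2a1 and Slc16a8, and Best1 had no DESeq2 adjusted p. The median log2 fold change was -0.06 over the 9 genes and -0.02 over all genes, and with the GC trend removed 0.14 and 0.04.

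**Figure D2:**
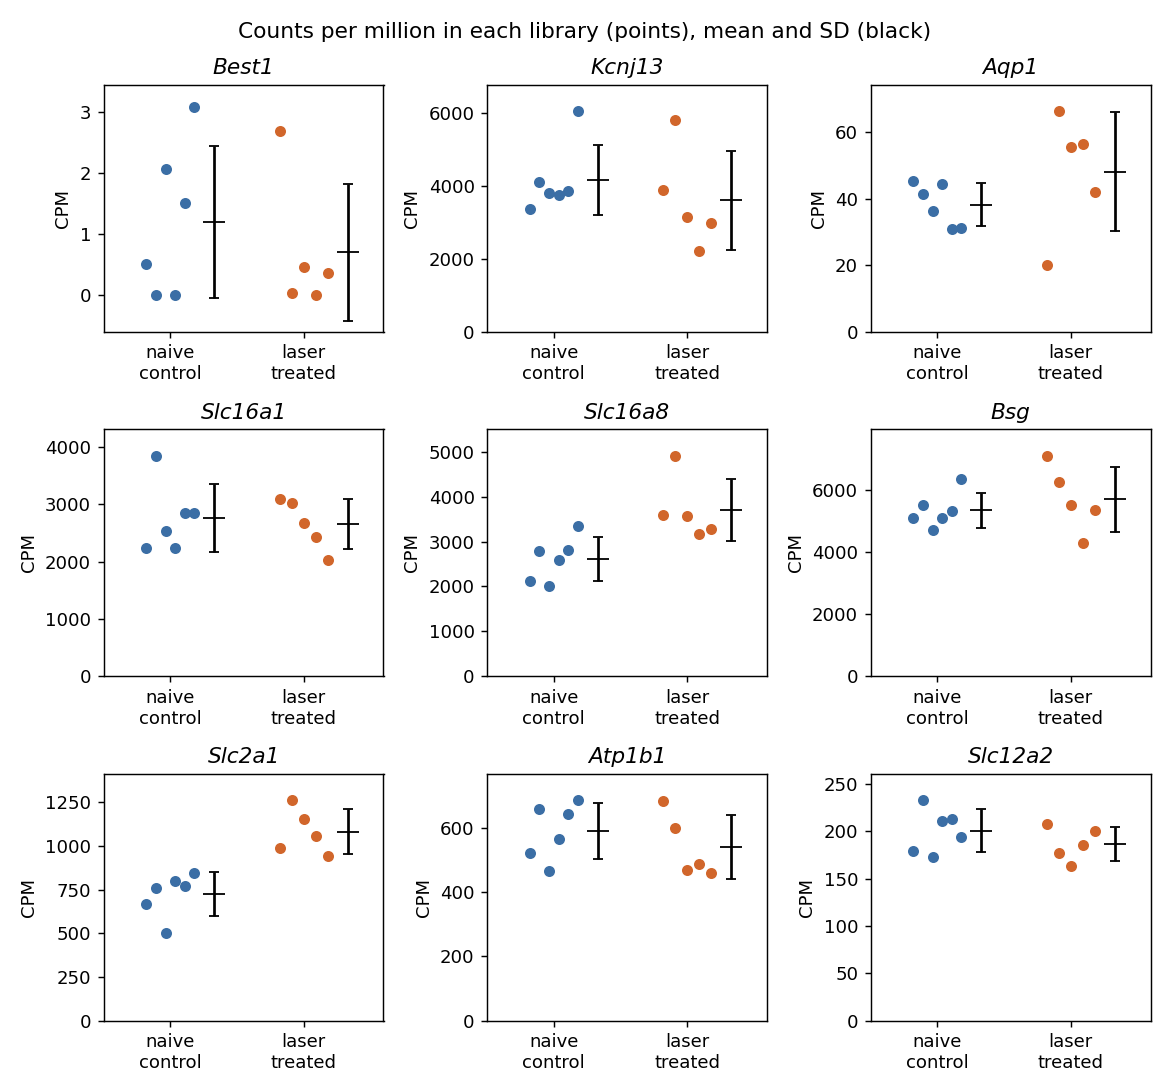
Level of each gene in CPM, 1 point a library, with the mean and SD of the group in black, for 6 naïve control and 5 laser treated samples, each panel with its own axis. The groups are apart only for Slc2a1, where the laser treated samples start at 944.2 CPM and the control samples end at 845.8 CPM.

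Slc2a1, the glucose transporter GLUT1, lies at chr4:119108711-119137983 on the plus strand (GRCm38). In the control samples it was at 500.3 (lowest), 765.7 (median) and 845.8 (highest) CPM. In the laser treated samples it was at 991.4, 1262, 1156, 1060 and 944.2 CPM. All 5 laser treated samples were above all 6 control samples. The control mean was 724.3 ± 124.7 CPM (SD, n = 6) and the laser treated mean 1083 ± 127.9 CPM (SD, n = 5), which gave a log2 fold change of 0.58 ± 0.14 (SE), or 1.49-fold with a 95% interval of 1.22 to 1.84. The edgeR p was 0.000927 and the adjusted p 0.172, and DESeq2 gave an adjusted p of 0.0123. With the trend of counts on GC content removed the log2 fold change was 0.44 (edgeR adjusted p = 0.674).

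Slc16a8 encodes MCT3, a lactate carrier of the basolateral face of the RPE. It lies at chr15:79251014-79254761 on the minus strand. It was at 2019, 2693 and 3353 CPM (lowest, median and highest) in the control samples and at 3599, 4915, 3579, 3181 and 3276 CPM in the laser treated samples. The groups overlapped, since 1 control sample was above the 2 lowest laser treated samples, and 3 of the 5 laser treated samples were above every control sample. The control mean was 2618 ± 491 CPM (SD, n = 6) and the laser treated mean 3710 ± 698.1 CPM (SD, n = 5), which gave a log2 fold change of 0.50 ± 0.15 (SE), or 1.42-fold with a 95% interval of 1.13 to 1.78. The edgeR p was 0.00553 with an adjusted p of 0.179, and the DESeq2 adjusted p was 0.0372. Its exons have a GC content of 63.3%, the highest of the 9 genes, and with the GC trend removed the log2 fold change was 0.28 (edgeR adjusted p = 0.774). In the authors' assembled transcripts only 15.3% of its exonic bases were covered in 3 control libraries and at least 96.5% in all others. The TPM of those transcripts gave a log2 fold change of -0.31. None of the assembled transcripts was spliced, while this gene has 5 exon blocks, so that TPM is not one of whole transcripts.

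Slc16a1 encodes MCT1, the lactate carrier of the apical face, and lies at chr3:104638668-104658462 on the plus strand. The control samples held 2237, 2694 and 3847 CPM (lowest, median and highest) and the laser treated samples 3088, 3017, 2682, 2432 and 2029 CPM. The groups overlapped throughout. The log2 fold change was -0.06 ± 0.16 (SE, edgeR adjusted p = 0.906), with a 95% interval of the fold of 0.759 to 1.21. Its sign turned without naïve control 2 (0.06) or laser treated 5 (0.02), and the log2 fold change was 0.235 with the GC trend removed and 0.175 on the TPM of the assembled transcripts. Slc16a8 over Slc16a1 per length was 1.88 ± 0.357 (SD, n = 6) in the control samples and 2.74 ± 0.396 (SD, n = 5) in the laser treated ones, ratios that were chosen after the values of both genes were seen and were not tested. With the GC trend removed the log2 fold changes of the 2 genes lay close together, at 0.28 for Slc16a8 and 0.235 for Slc16a1, whose exons have GC contents of 63.3% and 42.9%.

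Bsg encodes basigin, the partner of both carriers, and lies at chr10:79704491-79711969 on the plus strand. It was at 4716, 5224 and 6356 CPM (lowest, median and highest) in the control samples and at 7112, 6262, 5536, 4305 and 5350 CPM in the laser treated samples. The laser treated samples spread on both sides of the control samples. The log2 fold change was 0.09 ± 0.13 (SE, edgeR adjusted p = 0.807), with a 95% interval of the fold of 0.878 to 1.3.

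Kcnj13 encodes the potassium channel Kir7.1 and lies at chr1:87386363-87394729 on the minus strand. It was at 3372, 3829 and 6040 CPM (lowest, median and highest) in the control samples and at 3874, 5791, 3150, 2218 and 2992 CPM in the laser treated samples. Naïve control 6 and laser treated 2 were high, and the groups overlapped. The log2 fold change was -0.20 ± 0.22 (SE, edgeR adjusted p = 0.73), with a 95% interval of the fold of 0.625 to 1.21, and it was -0.44 without laser treated 2, -0.09 without naïve control 6 or laser treated 4, and 0.03 on the TPM of the assembled transcripts. The assembled transcripts covered 46.6% to 46.8% of its exonic bases, depending on the library. Of its exonic bases 49.1% are shared with Gigyf2 on the opposite strand. Gigyf2 itself was at 33.35 ± 7.321 CPM (SD, n = 6) in the control samples and at 27.76 ± 4.15 CPM (SD, n = 5) in the laser treated samples.

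Best1 was close to absent. It lies at chr19:9985174-10001633 on the minus strand, and no other gene shares its exons. The control samples had 18, 0, 64, 0, 56 and 102 counts and the laser treated samples 83, 1, 16, 0 and 12, where Kcnj13 had at least 77396 counts in every library. In the libraries at 0 the 3 counts that a count of 0 allows correspond to at most 0.122 CPM, a limit that covers counting error only. The groups overlapped, and the log2 fold change was -0.76 ± 1.5 (SE, edgeR adjusted p = 0.871), with a 95% interval of the fold of 0.063 to 5.52. The assembled transcripts were thin at this gene too, with a mean coverage of 2.52 reads per exonic base in the best library and 0 in 5 of the 11. Libraries of like total count differed from 0 to 102 counts, and the spread between them left the direction of a difference undetermined.

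Atp1b1, the beta subunit of the sodium pump, lies at chr1:164437109-164458355 on the minus strand. It was at 466.4, 604 and 685.2 CPM (lowest, median and highest) in the control samples and at 684.7, 600.7, 468.1, 486.8 and 460.2 CPM in the laser treated samples. The groups overlapped. The log2 fold change was -0.13 ± 0.14 (SE, edgeR adjusted p = 0.738), with a 95% interval of the fold of 0.742 to 1.13. Of its exonic bases 18.7% are shared with Nme7 on the opposite strand, and Nme7 had a log2 fold change of -0.56 (edgeR adjusted p = 0.194). Without strand information, which the sources do not give, reads of overlapping genes cannot be told apart.

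Slc12a2, the cotransporter NKCC1, varied little between libraries, with a coefficient of variation of 11.4% in the control samples and 9.52% in the laser treated samples. It is on chromosome 18 and was at 172.6, 202.9 and 232.9 CPM (lowest, median and highest) in the control samples and at 207.5, 177.1, 163.1, 186 and 200.3 CPM in the laser treated samples. The groups overlapped. The log2 fold change was -0.10 ± 0.11 (SE, edgeR adjusted p = 0.731), with a 95% interval of the fold of 0.789 to 1.1.

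Aqp1, a water channel found in endothelium as well as in epithelia, lies at chr6:55336432-55348555 on the plus strand. It was at 30.87, 38.86 and 45.18 CPM (lowest, median and highest) in the control samples and at 20.11, 66.26, 55.59, 56.51 and 42.14 CPM in the laser treated samples. The lowest and the highest sample were both laser treated. The log2 fold change was 0.33 ± 0.25 (SE, edgeR adjusted p = 0.571), with a 95% interval of the fold of 0.868 to 1.83, and it was 0.53 without laser treated 1, 0.19 without laser treated 2 and 0.145 with the GC trend removed. The correlation of Aqp1 with the mean log2 CPM of the endothelium markers is given with the other relations, and the part of those cells in this gene's values was not tested.

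**Figure D3:**
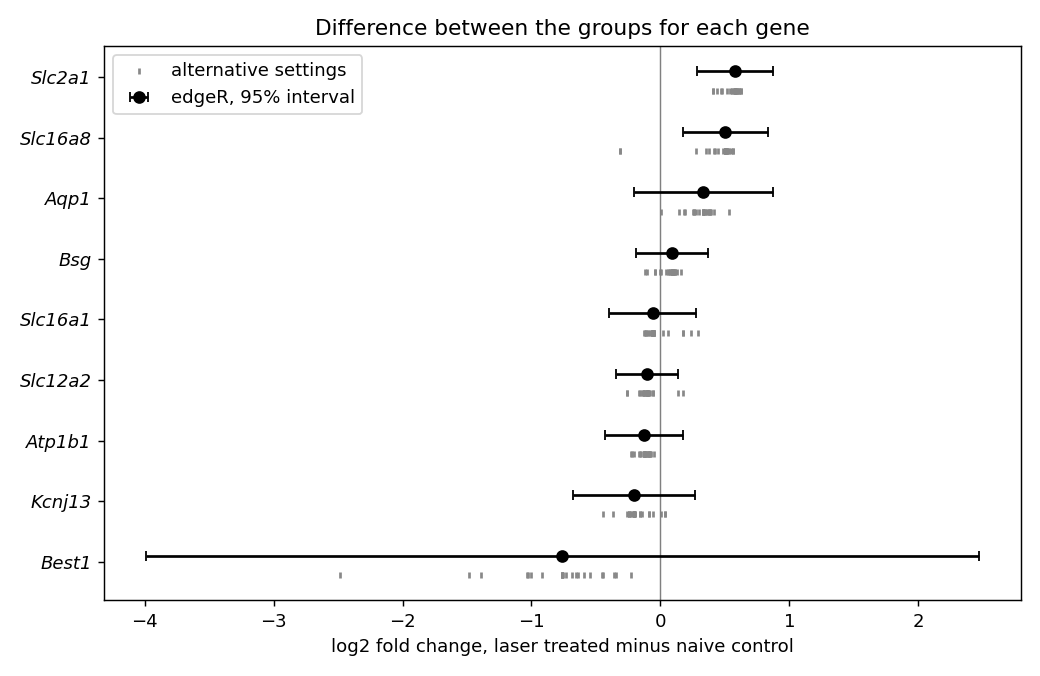
Log2 fold change of each gene, laser treated minus naïve control, with its 95% interval from edgeR (black) and the values under the alternative settings (grey ticks). The interval lies above 0 for Slc2a1 (0.284 to 0.876) and Slc16a8 (0.174 to 0.831), and is widest for Best1.

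The first lines of the assembled transcript files carry a label, R1 or R2, whose meaning is not given, with 3 control and 2 laser treated libraries under R1 and 3 of each under R2. The difference in mean log2 CPM, laser treated minus control, was 0.82 for Slc2a1 within R1 and 0.38 within R2. It was 0.88 and 0.20 for Slc16a8, so both genes were higher after laser under either label. Best1 (0.23 within R1 and -1.5 within R2), Kcnj13 (0.34 and -0.68), Slc16a1 (0.13 and -0.15), Bsg (0.39 and -0.15), Atp1b1 (0.24 and -0.42) and Aqp1 (-0.16 and 0.55) had opposite signs under the 2 labels. With the mean level of the photoreceptor markers as a covariate, added after seeing the data, the log2 fold changes were 0.54 for Slc2a1 (edgeR adjusted p = 0.178) and 0.41 for Slc16a8 (edgeR adjusted p = 0.199).

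Of 6 relations between levels over the 11 libraries, Slc16a8 with Slc2a1 passed adjustment by both measures used. Pearson's r of log2 CPM was 0.922 (permutation p = 7e-05, adjusted over the 6 relations 0.00042) and Spearman's rho 0.891 (permutation p = 0.00042, adjusted 0.00252). It was 0.827 with the group means removed (permutation p = 0.00087) and 0.859 without the 2 libraries farthest from the median of Slc16a8. Within the control samples r was 0.867 and within the laser treated samples 0.783, and it was 0.971 under R1 and 0.755 under R2. Pairs outside the 6 had like values with the group means removed, such as Kcnj13 with Slc16a8 (0.826), Kcnj13 with Bsg (0.81) and Bsg with Atp1b1 (0.803), and were not tested.

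Basigin was compared with each of its partners. For Bsg and Slc16a8 r was 0.59 (permutation p = 0.0555, adjusted 0.111) and rho 0.773 (adjusted 0.022), and r was 0.84 without laser treated 1 and 4. For Bsg and Slc16a1 r was 0.493 (permutation p = 0.124, adjusted 0.149) and rho 0.655 (adjusted 0.0662). The 3 remaining relations did not pass adjustment. They were Atp1b1 with Slc12a2 (r = 0.626, rho = 0.527, adjusted permutation p = 0.111 and 0.147), Aqp1 with the endothelium markers (r = 0.492, rho = 0.5, adjusted permutation p = 0.149 and 0.147) and Best1 with Kcnj13 (r = 0.26, rho = 0.376, adjusted permutation p = 0.44 and 0.255). Without the 2 libraries farthest from the median of the first gene, r was 0.697, 0.304 and 0.378 in that order, and 0.441 for Bsg with Slc16a1. Within R1 and R2, r was 0.828 and 0.292 for Bsg with Slc16a8, 0.456 and 0.408 for Bsg with Slc16a1, 0.786 and 0.53 for Atp1b1 with Slc12a2, 0.627 and 0.218 for Aqp1 with the endothelium markers, and -0.58 and 0.72 for Best1 with Kcnj13.

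**Figure D4:**
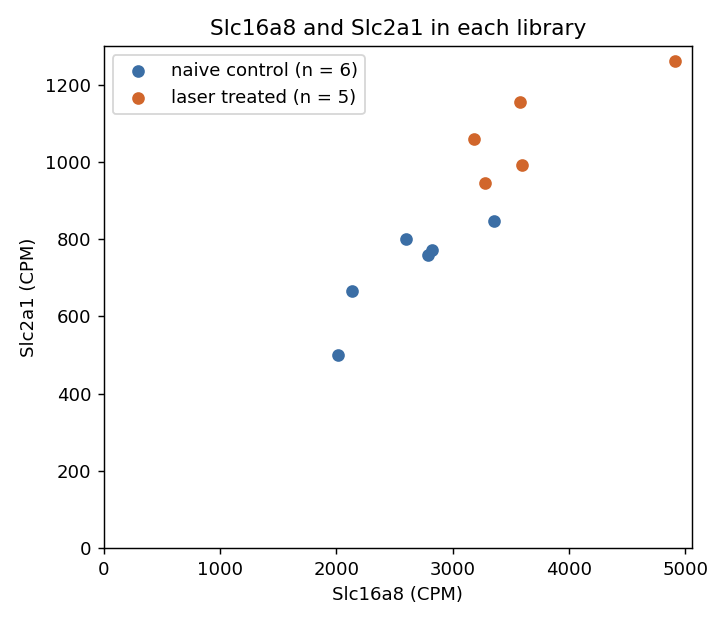
Slc2a1 against Slc16a8 in CPM, 1 point a library, for 6 naïve control and 5 laser treated samples. The points lie along 1 band in both groups (r = 0.922 over the log2 CPM of 11 libraries), with the laser treated samples at its upper end.

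The genes whose levels followed each of these most closely were found among 8853 genes with a mean of at least 10 CPM, by Pearson's r over the 11 libraries with the group means removed. For Slc16a8 they were Abcb9, Spry1 and Car14 (r of 0.966, 0.965 and 0.964), and for Slc2a1 they were Efhd2, Syngr2 and Bckdha (0.967, 0.955 and 0.944). For Kcnj13 they were Rgr, Tmem59 and Arl6ip1 (0.98, 0.942 and 0.932), and for Bsg they were Akr1a1, Slc25a11 and Rdh5 (0.958, 0.958 and 0.944). Atp1b1 was followed by Tmem72, Sumo3 and Itfg1 (0.955, 0.941 and 0.938), and Slc16a1 by Ubxn8, Pwp1 and E130311K13Rik (0.918, 0.915 and 0.913). Slc12a2 was followed by Cdc42, Taf9b and Cd9 (0.936, 0.918 and 0.91), and Aqp1 by BC031781, Ccdc82 and Cx3cl1 (0.902, 0.894 and 0.882). Such values are the top of a long ranking over few libraries that share depth and tissue composition, and serve as a description.

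Other channel and transporter genes were read beside the 9. Their lists were chosen with earlier results of these data known, so the shares below are a description and not a test. Of 148 listed, 133 were in the table, and none had an adjusted p under 0.05 by edgeR. At an unadjusted edgeR p under 0.05, 28 were higher and 8 lower after laser (27.1%, against 15.9% of all genes). DESeq2 gave 9 of the 133 an adjusted p under 0.05. Over all genes it did so for 547 of the 6946 that kept a DESeq2 adjusted p (7.88%). The 133 include genes without a DESeq2 adjusted p, such as Best2 and Kcnj10, so the 2 counts are not shares of like sets. The median log2 fold change of the 133 was 0.16, against -0.02 over all genes. The groups did not overlap for 7 of the 133, 6 of these higher after laser. Over all genes they did not overlap for 330 (2.26%), 204 of these higher. With the GC trend removed, an alternative added after seeing the data, 13 were higher and 2 lower at an unadjusted p under 0.05 (11.3%, against 7.33% of all genes). Of the 36 at an unadjusted p under 0.05 without it, 1 turned sign and 16 were smaller by over 1.5 times.

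**Figure D5:**
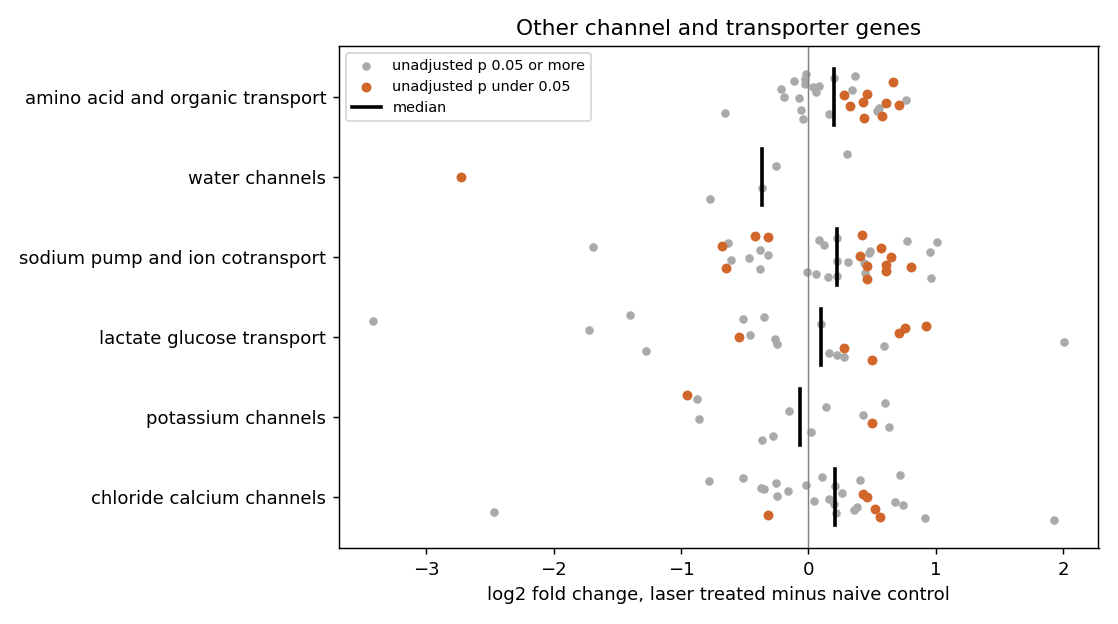
Log2 fold change, laser treated minus naïve control, of the other channel and transporter genes by list, 1 point a gene, with those at an unadjusted edgeR p under 0.05 in orange and the median of each list as a black line. The medians lie at 0.201 for amino acid and organic transport, 0.229 for sodium pump and ion cotransport and -0.361 for the 5 water channels.

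Among the lactate and glucose transport genes, 5 of 21 were higher and 1 lower at an unadjusted p under 0.05 (28.6%, against 15.9% of all genes). With the GC trend removed the share was 14.3%, against 7.33% of all genes. Slc2a8, the glucose transporter GLUT8, was at 24.41 ± 5.887 (SD, n = 6) and 41.37 ± 7.097 CPM (SD, n = 5) in control and laser treated samples (log2 fold change 0.76, edgeR adjusted p = 0.172). Nptn, which encodes neuroplastin, a relative of basigin that also partners lactate carriers, was the lower one, at 208.3 ± 33.33 and 143 ± 22.31 CPM (-0.54, edgeR adjusted p = 0.172, and -0.19 with the GC trend removed). Slc16a9, Slc2a4 and Slc2a10 were higher too, with log2 fold changes of 0.28, 0.71 and 0.92. The most abundant were Slc16a9, Nptn and Slc2a12.

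Of the 37 sodium pump and ion cotransport genes, 9 were higher and 4 lower at an unadjusted p under 0.05 (35.1%, against 15.9% of all genes). With the GC trend removed the share was 10.8%, against 7.33% of all genes. The anion exchanger gene Slc4a2 was at 350.8 ± 76.88 and 534.3 ± 113.9 CPM, without overlap (log2 fold change 0.61, edgeR adjusted p = 0.178). The potassium chloride cotransporter genes Slc12a7 and Slc12a4 had log2 fold changes of 0.81 and 0.61, and Slc12a9, Slc9a3r1, Slc26a11 and Wnk4 lay between 0.41 and 0.57. With the GC trend removed 8 of the 13 genes had a log2 fold change smaller by over 1.5 times, among them Slc4a2 (0.38), Slc12a9 (0.23), Slc9a3r1 (0.19), Wnk4 (0.21) and Atp2b1 (-0.31). Among the lower ones were Atp2b1 (-0.68), Wnk1 (-0.41) and Stk39 (-0.31). Wnk1 and Stk39 belong to the kinases that regulate Slc12 carriers, as does Wnk4, which was higher (0.42). The most abundant genes of the list, Car14, Car12 and Slc4a5, had log2 fold changes of 0.23, 0.08 and 0.23.

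Chloride and calcium channel genes were higher in 4 and lower in 1 of 29 at an unadjusted p under 0.05 (17.2%), a share near that of all genes (15.9%). The chloride channel gene Clcn2 was at 82.91 to 121.7 CPM in the control samples and 120.2 to 192 CPM in the laser treated samples (log2 fold change 0.57, edgeR adjusted p = 0.172), Clcn7, Ano10 and Lrrc8d had log2 fold changes of 0.52, 0.46 and 0.43, and Clcn3 one of -0.32. With the GC trend removed Clcn2 was at 0.34 and Clcn3 at 0.03. The abundant Trpm3 and Clic6 were at -0.02 and 0.20. Of 12 potassium channel genes 1 was higher and 1 lower at an unadjusted p under 0.05 (16.7%), also near the share of all genes. The lower gene was the photoreceptor subunit gene Kcnv2 (-0.95). The photoreceptor markers had a median log2 fold change of -0.354, and their part in the Kcnv2 value was not tested. Kcnj14 and Kcna2 were at 0.02 and -0.15. Of 5 water channel genes 1 was lower at an unadjusted p under 0.05 (20%, against 15.9% of all genes). It was Aqp5 (edgeR adjusted p = 0.302), with overlapping groups at 0.283 to 35.85 CPM in the control samples and 0 to 2.952 CPM in the laser treated samples. Aqp5 was also listed among the ciliary epithelium markers, and the part of those cells in its value was not tested. Aqp3, Aqp11 and Aqp4 were at -0.77, 0.30 and -0.36.

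Amino acid and organic transport genes were higher in 9 and lower in 0 of 29 at an unadjusted p under 0.05 (31%, against 15.9% of all genes). With the GC trend removed the share was 13.8%, against 7.33% of all genes. Slc7a5 and Slc3a2, the light and heavy chains of the large neutral amino acid carrier LAT1, were at 73.56 ± 15.69 and 120.8 ± 23.21 CPM and at 350.4 ± 46.88 and 440.4 ± 10.31 CPM in control and laser treated samples, both without overlap. Their log2 fold changes were 0.72 (edgeR adjusted p = 0.172) and 0.33 (edgeR adjusted p = 0.195). Slc7a8, which also pairs with Slc3a2, was at 0.61, and Slc6a20a, Slc6a13, Slc7a10, Slc38a3, Slc13a3 and Slc39a14 lay between 0.28 and 0.67. With the GC trend removed 5 of the 9 were smaller by over 1.5 times, Slc3a2 among them (0.21). The abundant Slc1a1 was at 0.16.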

How the data were processed

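RNA was pre-amplified with the SMART-Seq v4 kit and libraries made with NexteraXT, per the labels. The deposited table holds raw counts per gene, which per the submitters' processing notes came from bcl2fastq 2.18.0.12, Trim Galore, STAR 2.5.3a and featureCounts 1.5.3 on mm10/GRCm38. The authors' own fold changes, F statistics and p-values in it, from edgeR 3.22.3, were not used. The authors also deposited transcripts assembled by StringTie 1.3.3 for each library, with coverage, FPKM and TPM, of which coverage and TPM were used. Transcripts and exons were equal in number in each library, such as 82506 of each in naïve control 1. No assembled transcript was therefore spliced, and their TPM is not that of whole transcripts of genes with several exons. Pre-amplified reads without molecular identifiers are not independent molecules.

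Counts were analysed with edgeR 4.0.16 in R 4.3.3 (TMM, robust quasi-likelihood fits on all genes, since filterByExpr took out 0, and Benjamini-Hochberg adjustment over all genes). Total counts were 25700881 to 38755994, and the common biological coefficient of variation was 0.58. Exonic length and GC content were taken from GENCODE M21 for 97.5% of genes. Alternatives were DESeq2 1.42.0, other normalization and filters, GC correction, a replicate block, the R1 or R2 label, leaving out each library, and limma 3.58.1 on log2 of TPM plus a pseudocount of 1 or 0.1. DESeq2 filtered independently at a level of 0.05, and its default of 0.1 was added after both results had been seen. In simulated data with 200 of 14602 genes changed 4-fold, edgeR called 72.5% of them and DESeq2 81%, with 3.97% and 21% of calls being unchanged genes. The changed genes were drawn only from those above a minimum mean count. Smaller changes and a GC trend were not simulated, so these rates do not carry over to the differences described here. Permutation tests used 100000 resamples and were two-sided.

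The 9 genes and all lists were chosen with earlier results of these data known. Named from the other lists were genes with an unadjusted p under 0.05 and the 3 of highest mean CPM in each list. Some of these genes are not reported here by name. Other columns of per-sample values numbered 0.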

Additional observations from a re-analysis of the deposited data

Results flagged for a closer look

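Within a group, a sample was picked out where its gap to the nearest other sample was large against the range of the group by Dixon's criterion, which chance meets in about 5% of groups. Of 36 groups of values examined, 4 had such a sample. Slc16a8 was at 4915 CPM in laser treated 2, with the other laser treated samples at 3181 to 3599 CPM, and without that library its log2 fold change was 0.38 (edgeR adjusted p = 0.377). Kcnj13 was at 6040 CPM in naïve control 6, with the other control samples at 3372 to 4114 CPM. Best1 was at 2.687 CPM in laser treated 1 and at most 0.457 CPM in the other laser treated samples, and without that library its log2 fold change was -2.48 (edgeR adjusted p = 0.512). The red cell markers summed to 159.1 CPM in laser treated 5 and to 37.2 to 71.6 CPM in the others of its group.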

How the results depend on the processing

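No alternative with edgeR or limma gave any of the 9 genes an adjusted p under 0.05. DESeq2 did so for Slc2a1 (0.578, adjusted p = 0.0123) and Slc16a8 (0.5014, adjusted p = 0.0372), and also at its default filtering level (adjusted p = 0.0129 and 0.0397). Slc2a1, Atp1b1, Aqp1 and Best1 kept their sign under every alternative run, with Best1 not tested under the filter of 10 counts in every library. The sign turned for Slc16a1, Bsg and Slc12a2 with the GC trend removed (0.235, -0.1065 and 0.1398), and with that and the replicate block together (0.2916, -0.1202 and 0.1716, and 0.003263 for Kcnj13). On TPM of the assembled transcripts with a pseudocount of 1 or 0.1 it turned for Kcnj13 (0.03363 and 0.03364), Slc16a1 (0.1752 and 0.1753), Slc16a8 (-0.3111 and -0.3114) and Bsg (-0.03866 and -0.03867). Leaving out 1 library gave -0.127 to 0.05882 for Slc16a1, and turned no other sign.

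Genes with an adjusted p under 0.05 numbered 547 by DESeq2, 502 at its default level, 2 with at least 10 counts in every library, 2 on TPM with either pseudocount, and 0 to 4 when 1 library was left out, the 4 without laser treated 2. Those with an unadjusted p under 0.05 numbered 1070 with the GC trend removed and 1426 with the replicate block added to it. The cause was not tested. The replicate block, for 5 pairs, gave 0.6235 for Slc2a1 and 0.565 for Slc16a8 and changed no call on a gene, but the deviations of same-numbered samples correlated at over 0.1 in 2 of 5 pairs only (-0.00936 to 0.28), which does not establish a pairing. The relation of Bsg with Slc16a8 passed adjustment without 2 libraries (r = 0.84, adjusted permutation p = 0.0164). Best1 had 0 to 102 counts a library. Of the other channel and transporter genes, 15 had an unadjusted p under 0.05 with the GC trend removed, against 36.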
